A study of Mus musculus with 12 samples.

Results

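The 36 genes described here encode subunits of the mouse proteasome, among them the tissue-restricted Psma8 and Psmb11, and 3 chaperones that help to assemble it. They were chosen by symbol (Psma, Psmb, Psmc or Psmd followed by a number), and the 3 immunoproteasome subunits Psmb8, Psmb9 and Psmb10 were left out. They are 36 of the 26301 genes counted in the RNA-seq table, and 34 of them were among the 15352 genes of the RIP-seq tables. The cells were primary vascular smooth muscle cells from the aorta of C57BL/6 mice aged 6 weeks. RNA-seq compared 2 libraries of cells that carried a control hairpin with no target (shNT) with 2 libraries of cells that carried a hairpin against Thoc5 (shThoc5), at passages 4 to 8 and 4 days after infection. The labels give both shThoc5 libraries 1 hairpin number, so silencing of Thoc5 and off-target effects of the hairpin cannot be told apart. RIP-seq, the sequencing of RNA that coprecipitates with a protein, was done at passages 3 and 10. Each passage has 1 input library, 1 library precipitated with Thoc2 antibody and 1 precipitated with Thoc5 antibody. No precipitate with a control antibody is among the samples used here.

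The proteasome degrades proteins that carry ubiquitin chains. Its core particle is a barrel of stacked rings, of alpha subunits at the ends and beta subunits in the middle, with the protein-cutting sites on the inner face of the beta rings. A regulatory particle caps the barrel: its base holds a ring of ATPases that unfold the substrate, and its lid removes ubiquitin. Inhibitors of the proteasome are known to slow the proliferation of cultured vascular smooth muscle cells. Thoc2 and Thoc5 belong to THO, a complex that is loaded on RNA during transcription and helps to export it from the nucleus. By role the genes comprised 8 alpha subunits, 8 beta subunits, 6 ATPases, 3 other subunits of the base, 8 lid subunits and 3 chaperones of the base.

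Thoc5 was at 33.6 and 40.2 CPM (reads scaled to a common library total) in shNT and at 7.24 and 5.66 CPM in shThoc5, while Thoc2 was at 129 and 152 CPM and at 127 and 149 CPM (log2 fold change −0.02). The RNA-seq libraries held 15819207 to 21037732 counted reads, and the RIP-seq libraries 5396291 to 36336141. All 7 smooth muscle markers had reads in each of the 10 libraries. Acta2 (smooth muscle actin) ranged from 785 to 4549 CPM, whereas Myh11 (smooth muscle myosin) ranged from 3.05 to 21.1 CPM and Des (desmin) from 0.859 to 10.6 CPM. The Thoc2 immunoprecipitate of passage 3 stood apart from the other libraries, with 18.0% of its reads on ribosomal RNA against 0.157% to 6.74% elsewhere. In it the 6 heart muscle markers together reached 152 CPM, against 7.60 CPM in the input of that passage. Summed, and scaled by library totals without TMM factors, the 36 genes were at 3148 and 3518 CPM in shNT and 3357 and 3547 in shThoc5. They were at 4463 CPM in the passage 3 input and 5084 in the passage 10 input. The TMM factors of replicate 2, 0.969 in shNT and 1.017 in shThoc5, differ relatively more than its sums do, so the order of those sums depends on the scaling.

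The proteasome genes were expressed at high and similar levels per length. RPKM values (CPM per kilobase of the gene length in the authors' deposited table) were above the median of all genes with a length, 11.03 RPKM over 12240 genes, for 33 of the 34 detected members. The family median was 70.7 RPKM, and 31 members lay within 2-fold of it. The highest mean levels over the 4 RNA-seq libraries were those of the beta subunit Psmb1 (141 RPKM, range 133 to 151), the alpha subunit Psma2 (118 RPKM, 104 to 136) and the ATPase Psmc3 (116 RPKM, 109 to 119). By role the median was 87.0 RPKM for alpha subunits, 86.8 for beta subunits, 77.8 for the other base subunits, 70.7 for ATPases and 54.0 for the lid.

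The 3 lowest were the chaperones that help the base to assemble and are absent from the finished particle. Psmd5 was at 28.2 RPKM (range 22.0 to 32.2), Psmd10 (gankyrin) at 17.8 (15.9 to 19.9) and Psmd9 at 8.51 (7.23 to 9.40). The ranges of neighbours in the order of levels overlapped for 30 of 33 pairs. The 3 exceptions were the steps from Psma5 (39.5 to 44.1 RPKM) to Psmd5, from Psmd5 to Psmd10 and from Psmd10 to Psmd9. The highest member stood 16.6-fold above the lowest, and 3.38-fold above the lowest once the 3 chaperones were set aside. Psma8, an alpha subunit known from the testis, had 0 reads in all 4 RNA-seq libraries, and Psmb11, a beta subunit known from the thymus cortex, had 1 read in shThoc5 replicate 1, so neither was tested.

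**Figure D1:**
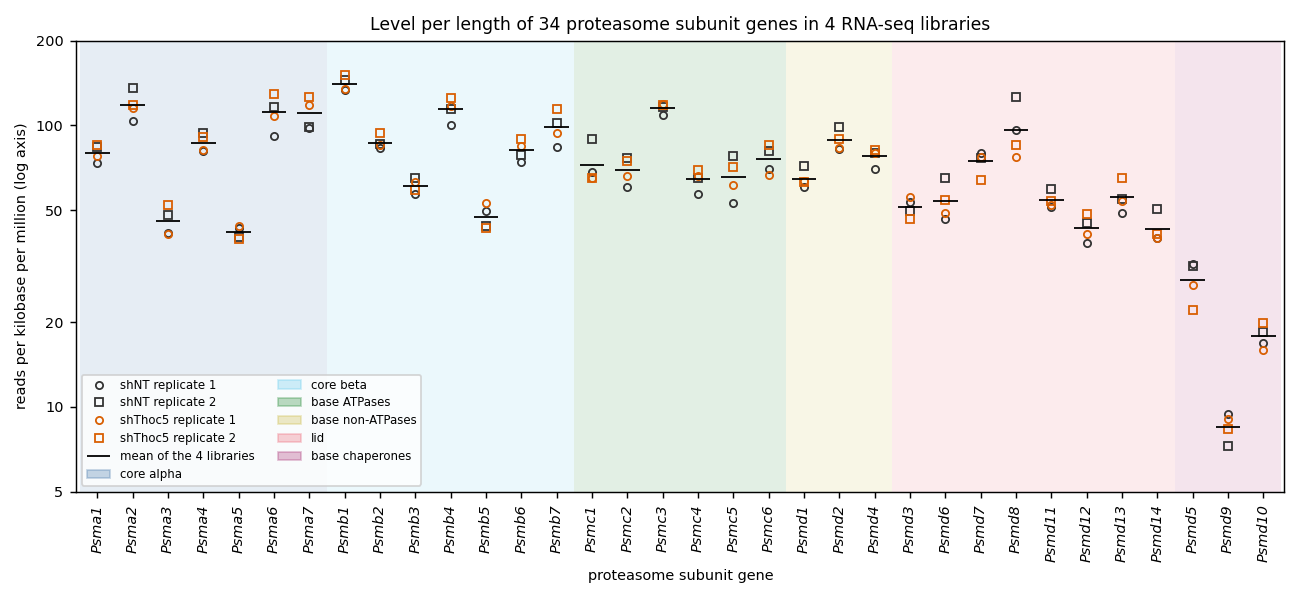
Level per length (RPKM, log axis) of the 34 detected proteasome genes in the 4 RNA-seq libraries, grouped by role, with a bar at the mean of the 4. The chaperones Psmd5, Psmd10 and Psmd9 lie below the other members, at 28.2, 17.8 and 8.51 RPKM, and shThoc5 and shNT symbols intermingle for most genes.

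The catalytic beta subunits were compared first between shThoc5 and shNT. Psmb5, which carries the chymotrypsin-like site, was at 43.1 and 38.3 CPM in shNT and at 46.3 and 37.6 CPM in shThoc5. Psmb6, with the caspase-like site, was at 77.0 and 81.6 CPM in shNT and at 87.3 and 92.7 CPM in shThoc5. Psmb7, with the trypsin-like site, was at 81.4 and 98.9 CPM in shNT and at 91.3 and 110.6 CPM in shThoc5. The groups overlapped for Psmb5 and Psmb7 and were separate for Psmb6, with higher values in shThoc5. Log2 fold changes were 0.05 (standard error 0.169) for Psmb5, 0.18 (0.135) for Psmb6 and 0.16 (0.177) for Psmb7, and none passed the test. The span of Psmb5 overlaps that of Mir686, so its reads are uncertain.

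Subunits that bind and process ubiquitin chains differed as little. Psmd4, a ubiquitin receptor, was at 88.0 and 100.01 CPM in shNT and at 99.7 and 102 CPM in shThoc5. Psmd14, the deubiquitinase of the lid, was at 61.5 and 78.1 CPM in shNT and at 61.4 and 63.5 CPM in shThoc5. The scaffolds Psmd1 and Psmd2, which hold the base together and dock ubiquitin-carrying proteins, were at 215 ± 25.3 and 277 ± 34.4 CPM in shNT and at 206 ± 0.797 and 264 ± 13.9 CPM in shThoc5 (mean ± SD, n = 2). Groups overlapped for all 4 of these genes, and the log2 fold changes were 0.10, −0.16, −0.06 and −0.07. Psmd1 overlaps Htr2b, which makes its reads uncertain, as the overlap with AY074887 does for Psma4 and that with Atg4a for Psmd10.

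The largest differences were of lid, base and alpha subunits. Psmd8, a lid subunit that joins late in assembly, was at 146 and 190 CPM in shNT and at 117 and 129 CPM in shThoc5. The chaperone Psmd5 was at 65.8 and 64.5 CPM in shNT and at 55.2 and 44.9 CPM in shThoc5. The ATPase Psmc1 was at 103 and 135 CPM in shNT and at 97.6 and 97.9 CPM in shThoc5. For these 3 both shThoc5 libraries lay below both shNT libraries, with log2 fold changes of −0.45 (standard error 0.182), −0.38 (0.159) and −0.28 (0.176). Without shNT replicate 2 the values of Psmd8 and Psmc1 were −0.25 and −0.07, and without shThoc5 replicate 2 that of Psmd5 was −0.24.

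At the other end, the alpha subunit Psma7 was at 86.0 and 87.1 CPM in shNT and at 104 and 111 CPM in shThoc5, a log2 difference of 0.32 (standard error 0.134). Psmd13 of the lid was at 76.2 and 85.4 CPM in shNT and at 84.4 and 102 CPM in shThoc5. Psma6 was at 91.5 and 115.9 CPM in shNT and at 107 and 129 CPM in shThoc5. The groups were separate for Psma7 and overlapped for Psmd13 and Psma6, whose log2 fold changes were 0.21 and 0.19. Leaving out each library in turn gave 0.06 to 0.33 for Psmd13 and 0.03 to 0.37 for Psma6.

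No proteasome gene passed the test. The edgeR quasi-likelihood test with Benjamini-Hochberg adjustment at 0.05 called 0 of 13569 genes (0.00%) and 0 of the 34 members. At an unadjusted p under 0.05 it held 651 genes and 0 members, the lowest member p being 0.0506 for Psmd8 (adjusted p = 0.9995). DESeq2 called 46 genes and 0 members, with 1 member under an unadjusted 0.05, and limma-voom called 0 genes (646 had an unadjusted p below 0.05). Thoc5 itself had a log2 fold change of −2.51 (standard error 0.208) and an edgeR adjusted p of 0.499, against 1.78e-14 in DESeq2. With the replicate number as a term edgeR called 511 genes and 1 member, Psmd8 (log2 −0.44, adjusted p = 0.0493). In the authors' deposited table the 34 members had log2 fold changes between −0.44 and 0.32, and their lowest adjusted p was 0.9999.

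As a group the members stayed near 0. The median log2 fold change was 0.03, against 0.01 over all genes tested, and 30 of 34 members lay within 0.25 of 0, where 68.7% of all genes did. The median size of the change, without its sign, was 0.07 for members and 0.16 for all genes, and the median standard error was 0.161 for members and 0.206 for all genes. Both shThoc5 libraries lay above both shNT libraries for 5 members (Psma7, Psmb6, Psmb4, Psmc4 and Psmc3), where 16.2% of all genes did, and below for 3, where 16.4% did. By role the medians were 0.08 for beta subunits, 0.06 for alpha subunits, 0.03 for ATPases, 0.02 for the chaperones, −0.06 for the other base subunits and −0.09 for the lid. The 6 endothelial markers summed to 385 and 611 CPM in shNT and to 293 and 297 CPM in shThoc5, and all 6 had reads in the 4 libraries. The 6 adventitial fibroblast markers, also all with reads, summed to 1160 and 968 CPM in shNT and to 933 and 778 CPM in shThoc5. The markers did not share 1 direction. Dcn was at 582 and 545 CPM in shNT and at 286 and 301 CPM in shThoc5. Pdgfra was higher in shThoc5 (349 and 314 CPM in shNT, 407 and 371 CPM in shThoc5). Ly6a went with the replicate number (229 and 135 CPM in shNT, 221 and 91.0 CPM in shThoc5). The part of both lists in the results was not tested. In bulk samples fewer cells of a type and less RNA per cell cannot be told apart.

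**Figure D2:**
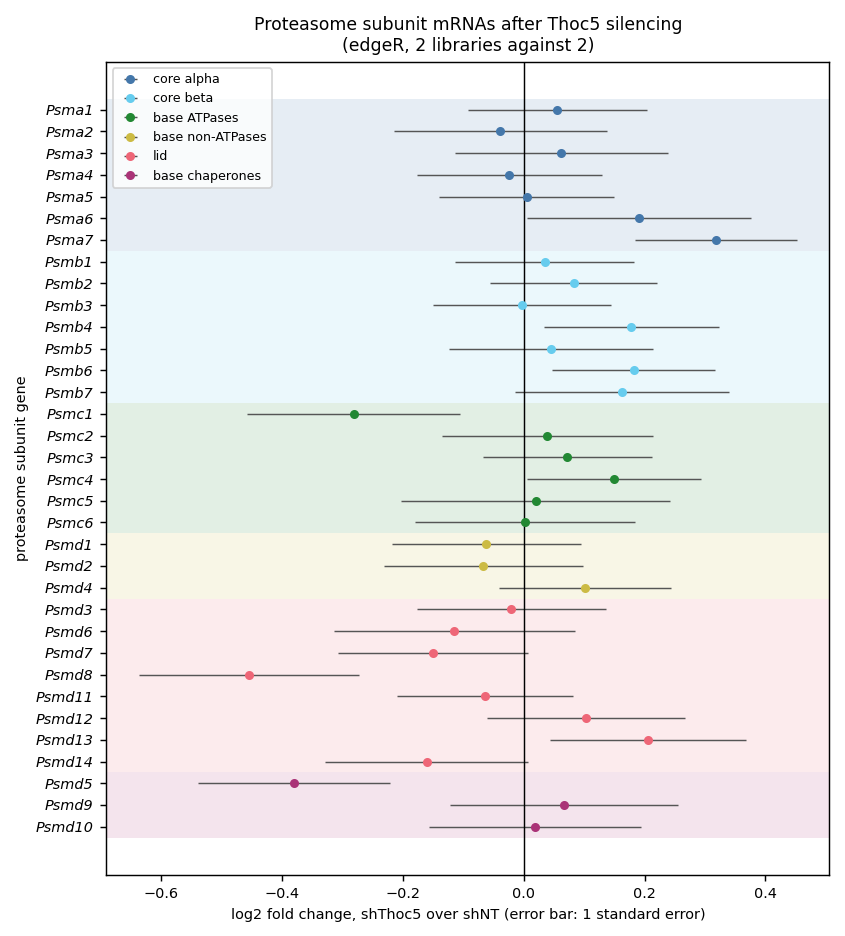
Log2 fold change of shThoc5 over shNT for the 34 tested proteasome genes, grouped by role, with 1 standard error on each side (edgeR, 2 libraries against 2). Values run from −0.45 (Psmd8) to 0.32 (Psma7), and 30 of the 34 lie within 0.25 of 0.

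Replicates also differed within the groups. Replicate 2 was above replicate 1 in both groups for 25 of the 34 members, where 36.2% of all genes did so, and below in both groups for 6, where 36.9% did. The members' median log2 ratio of replicate 2 to replicate 1 was 0.19 in shNT and 0.09 in shThoc5, and that of all genes was −0.0043 and −0.0017. The 6 targets of Nfe2l2 (the oxidative stress regulator Nrf2) went the other way. All 6 were lower in replicate 2 of both groups, with medians of −2.19 and −2.31. Nqo1, a quinone reductase, was at 335 and 38.2 CPM in shNT and at 299 and 20.4 CPM in shThoc5. The sum of the smooth muscle markers also moved with the replicate number, from 3384 to 5741 CPM in shNT and from 3012 to 4271 CPM in shThoc5. Des went the other way in both groups (2.55 and 1.86 CPM in shNT, 2.77 and 1.74 CPM in shThoc5). Smtn was higher in replicate 2 of shNT only (153 and 243 CPM in shNT, 165 and 159 CPM in shThoc5). The other markers of the list were higher in replicate 2 of both groups, and the part of the list was not tested.

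The non-member genes whose profile over the 4 libraries was most like the members' median profile were Rab33b, Prkaa1, Sh3glb2, Cep290 and Med22. After each profile was centred on its mean, they differed from it by a root mean square of 0.00456 to 0.00748 on the log2 CPM scale. With 4 libraries such a likeness is a description only.

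Promoters of 29 members were in the RefSeq table for GRCm38.p6, from 250 bases before to 50 bases after the start of the gene. Motif letters were searched on both strands. Nfe2l1 and Nfe2l2 bind antioxidant response elements together with small Maf proteins, and Nfe2l1 is known to raise transcription of proteasome genes when the proteasome is inhibited. The core letters TGACNNNGC were found in 5 of the 29 members (17.2%) and in 13.99% of all 27025 genes of the table, or 12.4% of its 32851 promoters. The matches upstream of the start are shown because the replicate numbers set apart the Nfe2l2 targets. Each stretch is written 5′ to 3′ on the strand of the gene, and capitals mark the motif, which reads on the opposite strand in Psmc6 and Psmd12.
Psmb5, chr14:54618018-54618058, minus strand: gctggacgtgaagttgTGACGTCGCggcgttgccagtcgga
Psmb6, chr11:70525332-70525356, plus strand: ggcggactaaagagagTGACGGAGC
Psmc6, chr14:45329581-45329621, plus strand: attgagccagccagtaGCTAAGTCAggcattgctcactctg
Psmd9, chr5:123228143-123228183, plus strand: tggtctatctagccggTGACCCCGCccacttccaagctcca
Psmd12, chr11:107479278-107479305, plus strand: tctGCTGTGTCAcatttgcccccctcag
The motif began 47 bases before the start in Psmb5, 31 in Psmd9 and 9 in Psmb6, and 227 and 247 in Psmc6 and Psmd12. The 5 members with these letters had a median log2 ratio of replicate 2 to replicate 1 of 0.08 in shNT and 0.09 in shThoc5, and the 23 tested members with a promoter but without them had 0.21 and 0.09.

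Letters bound by ETS factors, CCGGAAG, were found in 10 of the 29 members (34.5%) and in 9.93% of all genes of the table, or 8.86% of its promoters. The 10 were Psma6, Psmc1, Psmc2, Psmc6, Psmd2, Psmd4, Psmd6, Psmd11, Psmd12 and Psmd13, of which 9 belong to the regulatory particle. That particle has 6 ATPases, 3 other base subunits and 8 lid subunits among the 36 genes. Its share among the 29 was not counted, so the 9 do not show a concentration there. The stretches of 5 members described in the results are shown with the motif in capitals, which reads on the opposite strand in Psmc1 and Psmd2.
Psma6, chr12:55398677-55398715, plus strand: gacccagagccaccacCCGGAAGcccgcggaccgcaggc
Psmc1, chr12:100110158-100110196, plus strand: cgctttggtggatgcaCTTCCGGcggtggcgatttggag
Psmc6, chr14:45329708-45329746, plus strand: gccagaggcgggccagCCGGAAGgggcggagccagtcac
Psmd2, chr16:20651610-20651648, plus strand: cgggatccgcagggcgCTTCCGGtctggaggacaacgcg
Psmd4, chr3:95042717-95042755, minus strand: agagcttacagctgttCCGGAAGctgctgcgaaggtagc
The 10 members with the letters had a median log2 fold change after Thoc5 silencing of 0.02, as did the 18 tested members with a promoter but without them. At passage 3 the median log2 ratio of the Thoc2 immunoprecipitate to input was −0.60 with the letters and −1.35 without. For the input of passage 10 over that of passage 3 it was 0.26 and 0.16. The part of the letters in these values was not tested. The CCAAT letters bound by NF-Y were in 12 of the 29 (41.4%) and in 41.1% of all genes. A match of letters is a description and does not show that a factor binds there.

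The inputs of the RIP-seq experiment gave the levels of the members at passage 3 and passage 10, with 1 library each and thus no replicate check and no test. Ratios are given as log2 of CPM with 0.5 CPM added, a call is a ratio past 2-fold, and the 95% intervals are exact intervals of the CPM ratio that cover counting error only. Psmd5 was at 15.96 CPM in the passage 3 input and at 43.9 CPM in the passage 10 input (log2 1.43, interval 1.31 to 1.62). Psmd11, a lid subunit, was at 53.6 and 112 CPM (log2 1.06, interval 0.98 to 1.15). These 2 were the only members past 2-fold upward, where 31.0% of all genes were, and 0 were past it downward, where 17.0% were. With TMM factors 0 members were past it upward and 1 downward, and after centring 1 and 1.

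The lowest ratio was that of Psmd8, at 547 CPM in the passage 3 input and 314 CPM in the passage 10 input (log2 −0.80, interval −0.84 to −0.76). At passage 3 Psmd8 was the member with the most reads, 19878, followed by Psmb1 at 241 CPM. Psmb2, a beta subunit, was at 175 and 127 CPM (log2 −0.46). Of the catalytic subunits Psmb5 was at 52.9 and 87.3 CPM and Psmb6 at 148 and 232 CPM, both higher at passage 10, while Psmb7 was at 130 and 118 CPM.

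Ubiquitin-handling subunits lay between these. Psmd4 was at 133 and 162 CPM and Psmd14 at 92.1 and 85.7 CPM. The scaffolds Psmd1 and Psmd2 were at 147 and 226 CPM and at 189 and 217 CPM. The members' median log2 ratio of passage 10 to passage 3 was 0.26, below the 0.43 of all genes, and it was −0.22 with TMM factors and −0.16 after centring on all genes, so its sign depends on the scaling. With TMM factors 18.5% of all genes were past 2-fold upward and 23.8% downward.

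The markers of adventitial fibroblasts, all 6 with reads in both inputs, summed to 2654 CPM at passage 3 and 175 CPM at passage 10. Macrophage markers summed to 181 and 54.6 CPM, with 6 of 6 listed at passage 3 and 4 of 6 at passage 10, where Ptprc and Adgre1 were not among the listed genes. Cd14 went against the sum, at 28.7 and 37.3 CPM, and made up most of it at passage 10. Smooth muscle markers summed to 5368 and 7515 CPM, but did not move together. Acta2 was at 2091 and 4549 CPM, and Cnn1, Smtn and Cald1 were also higher at passage 10. Tagln (2194 and 1359 CPM), Myh11 (6.72 and 3.05 CPM) and Des (9.44 and 0.893 CPM) were lower. The part of these markers in the difference between the inputs was not tested.

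**Figure D3:**
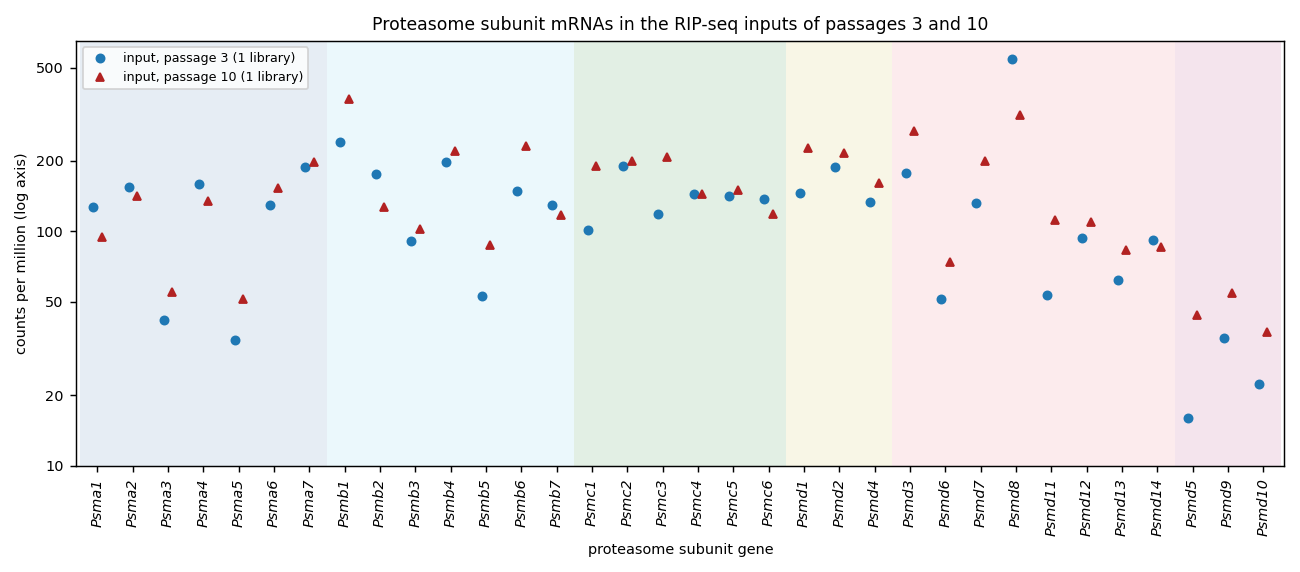
CPM (log axis) of the 34 proteasome genes in the RIP-seq inputs of passage 3 (circles) and passage 10 (triangles), 1 library each, with shading for alpha, beta, ATPase, other base, lid and chaperone genes from left to right. Psmd8 is highest at passage 3 with 547 CPM, and Psmd5 shows the widest upward gap, from 15.96 to 43.9 CPM.

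In the Thoc2 immunoprecipitate of passage 3 most proteasome mRNAs were at lower CPM than in the input. A gene was called depleted at a log2 ratio of −1 or less and enriched at 1 or more, with at least 10 reads and 1 CPM in the higher library. Of the 34 members 17 were depleted, where 21.8% of all genes were, and 0 were enriched, where 18.0% were. The members' median log2 ratio was −0.99, and that of all 13092 genes tested was −0.15. All 7 detected beta subunits and 6 of 7 alpha subunits were depleted, with medians of −1.41 and −1.31. Beyond the core the depleted members were Psmd8 and Psmd14 of the lid, the ATPase Psmc6 and the chaperone Psmd10.

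The lowest ratios were those of Psmb6, at 39.8 CPM against 148 CPM in the input (log2 −1.88, interval −2.10 to −1.70), and of Psmb1, at 69.5 against 241 CPM (−1.79, interval −1.95 to −1.65). Psmd8 was at 172 against 547 CPM (−1.67) and Psma1, an alpha subunit, at 40.8 against 127 CPM (−1.62). Psmb5 was at 19.6 against 52.9 CPM (−1.41) and Psmb7 at 59.1 against 130 CPM (−1.13). Psmd14 was at 34.8 against 92.1 CPM (−1.39), and the receptor Psmd4 was closer to its input, at 91.0 against 133 CPM (−0.55). Only 3 members lay above 0. They were the scaffolds Psmd1, at 218 against 147 CPM (0.57, interval 0.48 to 0.67), and Psmd2, at 250.4 against 189 CPM (0.40, interval 0.32 to 0.49), and the lid subunit Psmd3, at 188 against 178 CPM (0.08, interval −0.02 to 0.17). Psmc3 followed at −0.09.

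With totals that leave out ribosomal RNA and mitochondrially encoded genes, 22.3% of all genes were past 2-fold upward and 17.4% downward, and the members' median was −0.78. The part of the ribosomal RNA and of the heart muscle markers of this library in its ratios was not tested. With library totals 30 of the 34 members lay below the median of all genes.

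The Thoc5 immunoprecipitate of passage 3 was closer to the input for most members. Depleted were 5 members (Psmc6, Psma4, Psma5, Psmb1 and Psmb2), where 12.7% of all genes were, and 0 were enriched, where 23.0% were. The members' median was −0.44 and that of all genes 0.20. With TMM factors 17.1% of all genes were past 2-fold upward and 17.9% downward, 11 members were depleted and their median was −0.69.

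The ATPase Psmc6 had the lowest ratio, at 53.9 against 138 CPM (log2 −1.34, interval −1.52 to −1.19), followed by Psma4 (−1.16), Psma5 (−1.07) and Psmb1 (−1.06). The catalytic subunits were at −0.38 (Psmb5, 40.5 against 52.9 CPM), −0.72 (Psmb6, 89.9 against 148 CPM) and 0.01 (Psmb7, 131 against 130 CPM). Psmd14 was at 51.9 against 92.1 CPM (−0.82). The highest ratio was that of Psmd2, at 326 against 189 CPM (0.78, interval 0.71 to 0.86), followed by Psmd3 (0.42), the chaperone Psmd5 (0.41) and Psmd13 (0.32). Psmd4 was at 145 against 133 CPM (0.12) and Psmd1 at 158 against 147 CPM (0.11); TMM factors move the median of all genes by −0.24, which is more than either value.

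At passage 10 the members' medians were closer to 0 for both antibodies, while with Thoc5 the members below 0 numbered 29 against 23 at passage 3. In the Thoc2 immunoprecipitate 2 members were depleted, Psmc6 and Psma3, where 7.33% of all genes were, and 0 were enriched, where 12.3% were. Psmc6 was at 45.5 against 118 CPM (log2 −1.37, interval −1.50 to −1.26) and Psma3 at 26.3 against 54.9 CPM (−1.05, interval −1.23 to −0.90), and the spans of Psma3 and 3110056K07Rik overlap. Psma4 (−0.995) and Psma2 (−0.98) were just inside the threshold. Psmb5 was at 56.4 against 87.3 CPM (−0.63), Psmb6 at 129 against 232 CPM (−0.85) and Psmb7 at 85.5 against 118 CPM (−0.46). Highest were Psmd2 (308 against 217 CPM, 0.51), Psmd1 (285 against 226 CPM, 0.33), Psmd13 (0.22) and Psmd3 (0.13). Psmd4 was at −0.41 and Psmd14 at −0.64. The members' median was −0.49 and that of all genes −0.03.

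In the Thoc5 immunoprecipitate of passage 10 no member was past 2-fold in either direction, where 4.61% of all genes were depleted and 5.94% enriched. The lowest were Psmc6 at 61.0 against 118 CPM (log2 −0.95, interval −1.09 to −0.82), Psma2 (−0.70), Psma3 (−0.67) and Psma4 (−0.64). The highest were Psmd2 at 326 against 217 CPM (0.59, interval 0.52 to 0.65), Psmd13 (0.29), the ATPase Psmc5 (0.17) and Psmd3 (0.16). Psmb5 (−0.59), Psmb6 (−0.56) and Psmb7 (−0.09) were all at or below their input, as were Psmd4 (−0.32) and Psmd14 (−0.42), and Psmd1 was at 0.13. The members' median was −0.31 and that of all genes 0.04.

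**Figure D4:**
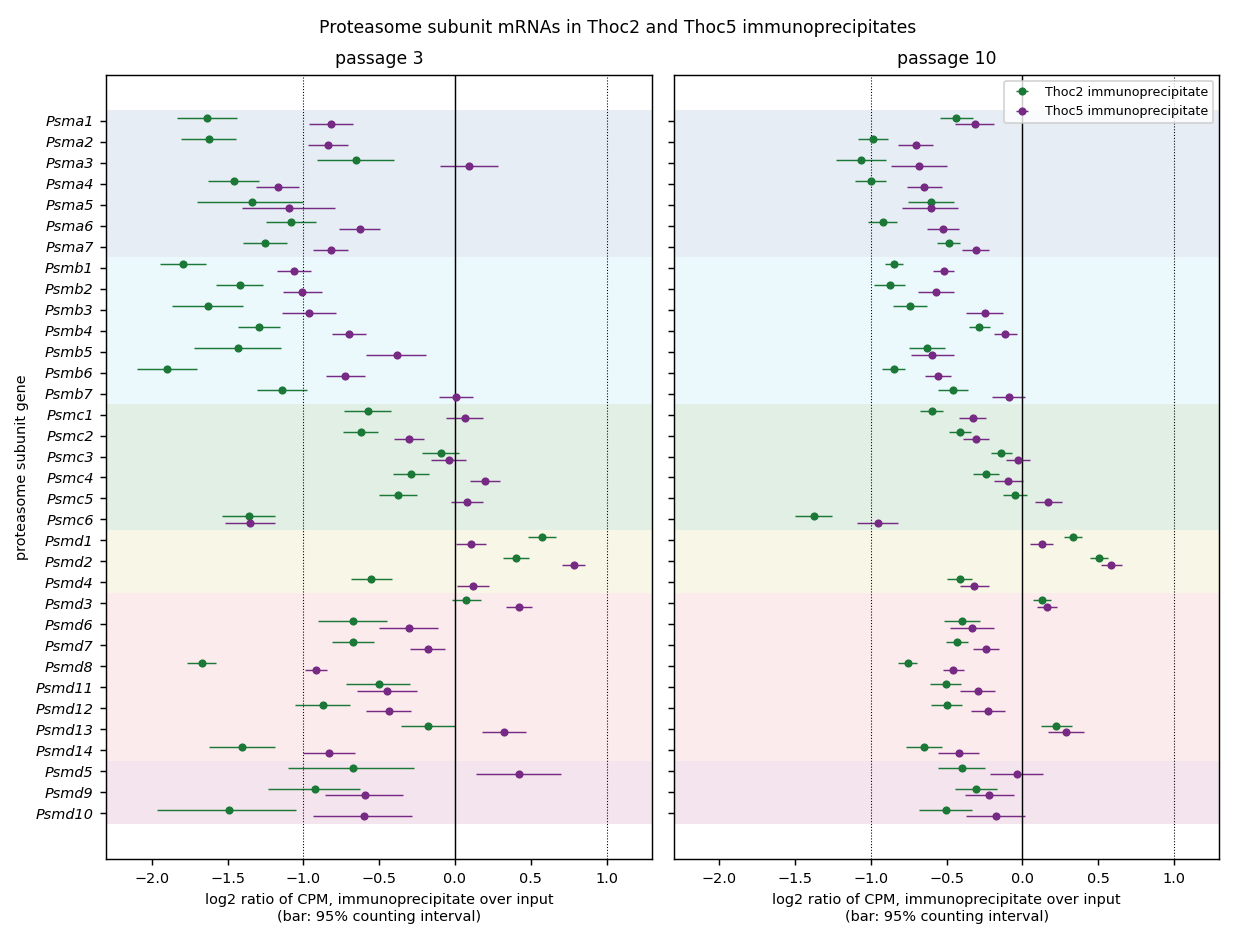
CPM of each immunoprecipitate over that of the input of its passage, on a log2 scale, for the 34 proteasome genes, Thoc2 in green and Thoc5 in purple, with 95% intervals for counting error only and dotted lines at 2-fold. At passage 3 all 7 beta subunits in the Thoc2 immunoprecipitate lie left of −1, and Psmd1, Psmd2 and Psmd3 lie right of 0 in each panel apart from the lower interval bound of Psmd3 for Thoc2 at passage 3.

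Across the 4 immunoprecipitates 23 members were below the input in all, 3 (Psmd1, Psmd2 and Psmd3) were above it in all, and 8 had mixed signs. Of the 11671 genes tested in all 4, 30.3% were below the input in all and 31.5% above. With TMM factors 27 members were below in all and 2 above, as Psmd1 turned sign with Thoc5 at passage 3, and the interval of Psmd3 with Thoc2 at passage 3 includes 0. The 4 ratios are not independent, since the immunoprecipitates of a passage share an input. Depleted in at least 1 of the 4 were 18 members, and enriched in any were 0. The share of all genes called in at least 1 of the 4 is not given, so these counts show no difference from it. The authors deposited lists of 560, 2277, 919 and 1046 selected genes for Thoc5 and Thoc2 at passage 10 and Thoc5 and Thoc2 at passage 3. In these lists, whose rule of selection was not used here, there were 0 members.

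The direct comparison of the antibodies does not use the input. At passage 3 the Thoc5 library was at or above the Thoc2 library for 33 of 34 members, while 30.4% of all genes lay below it. The members' median log2 ratio was 0.49 against 0.35 for all genes, and 9 members lay below the latter. Higher by 2-fold were 4 members, where 15.6% of all genes were, and lower were 0, where 6.47% were. They were the 3 catalytic subunits, Psmb6 (89.9 against 39.8 CPM, log2 1.16, interval 0.94 to 1.41), Psmb7 (131 against 59.1 CPM, 1.14, interval 0.96 to 1.34) and Psmb5 (40.5 against 19.6 CPM, 1.03, interval 0.71 to 1.39), and the chaperone Psmd5 (21.4 against 10.01 CPM, 1.06, interval 0.63 to 1.58). With TMM factors, with centring, or with totals without ribosomal RNA and mitochondrially encoded genes 0 members were past 2-fold, and with TMM factors 8.96% of all genes were past it upward and 10.3% downward. The lowest were Psmd1 (158 against 218 CPM, −0.47, interval −0.59 to −0.34) and Psmc6 (0.01). Psmd4 (0.67), Psmd14 (0.57) and Psmd2 (0.38) lay between.

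At passage 10 the antibodies differed less, with a median of 0.22 for members and 0.06 for all genes. No member was past 2-fold, where 1.40% of all genes were higher and 4.10% lower. Psmb3 (0.49) and Psmc6 (0.42) were the highest, and Psmd1 (−0.21, interval −0.28 to −0.13) and Psma5 (0.00) the lowest. Psmb7 was at 0.37, Psmb6 at 0.29, Psmd14 at 0.23, Psmd4 at 0.10, Psmd2 at 0.08 and Psmb5 at 0.04. Psmd1 was the lowest member in both passages.

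The order of the members was similar at both passages. Over the 34 members the Spearman correlation of passage 3 with passage 10 ratios was 0.73 for Thoc2 and 0.70 for Thoc5, given as a description because the genes share libraries and the ratios share inputs. The same correlation over all genes is not given, so the likeness is not shown to be particular to the members. For Thoc2 28 members were higher at passage 10 than at passage 3, where 59.5% of all genes were. The median difference was 0.38 for members and 0.14 for all genes, and with TMM factors 0.31 and 0.07. The widest gaps upward were those of Psma1 (1.19) and Psmb6 (1.04), and the widest downward was that of Psma3 (−0.41). For Thoc5 21 members were higher at passage 10, where 41.9% of all genes were, with a median difference of 0.12 for members and −0.13 for all genes. With TMM factors these were 28 members, 54.7% of all genes, 0.33 and 0.08. Psma3 differed by −0.77 with library totals. The ratios of all genes also spread less at passage 10. Past 2-fold with Thoc2 were 18.0% upward and 21.8% downward at passage 3, and 12.3% and 7.33% at passage 10. For Thoc5 the shares were 23.0% and 12.7%, then 5.94% and 4.61%. At passage 3 the members' Thoc2 median was −0.99 and that of all genes −0.15, so all genes are not a like background. The part of this narrowing in the members' differences was not tested.

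Short genes had low ratios among members and among all genes. The authors' gene length ranged from 731 to 3256 bases in the members, with a median of 1435 bases, against a median of 2777 bases for the 11704 genes with a length and a Thoc2 ratio at passage 3. The Spearman correlation across genes of length with the Thoc2 ratio at passage 3 was 0.57 over all genes and 0.63 over members, and for the other 3 immunoprecipitates it was 0.41 to 0.62 over all genes and 0.50 to 0.52 over members. Genes are not independent replicates, so these are descriptions. Of the 16 members under 1300 bases 13 were core subunits, and Psmd1 (3256 bases) and Psmd2 (3053 bases) were the longest members. At a split of 1300 bases, chosen after the values were seen, the 16 shorter members had a median Thoc2 ratio at passage 3 of −1.36, and the 1813 genes of all kinds under that length had −1.21. The 18 longer members had −0.63, and the 5174 genes between that length and 3256 bases had −0.38. Over the whole range of the members' lengths, all genes had a median of −0.51 and the members −0.99. At passage 10 the shorter members were at −0.61 for Thoc2 and −0.42 for Thoc5, above the −0.74 and −0.57 of all genes under 1300 bases. The longer members were at −0.42 and −0.22, below the −0.17 and −0.07 of all genes of that length range, and over the whole range members were at −0.49 and −0.31 and all genes at −0.26 and −0.14. For Thoc2 at passage 3 most of the longer members lay below that −0.38. The lowest were Psmd8 (1513 bases, −1.67), Psmd10 (1456 bases, −1.43), Psmd14 (1541 bases, −1.39) and Psmc6 (1564 bases, −1.35), and Psmd9 (2592 bases) was at −0.91. Only Psmd13 (1563 bases, −0.18), Psmc3, Psmc4, Psmd1, Psmd2 and Psmd3 lay above it.

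**Figure D5:**
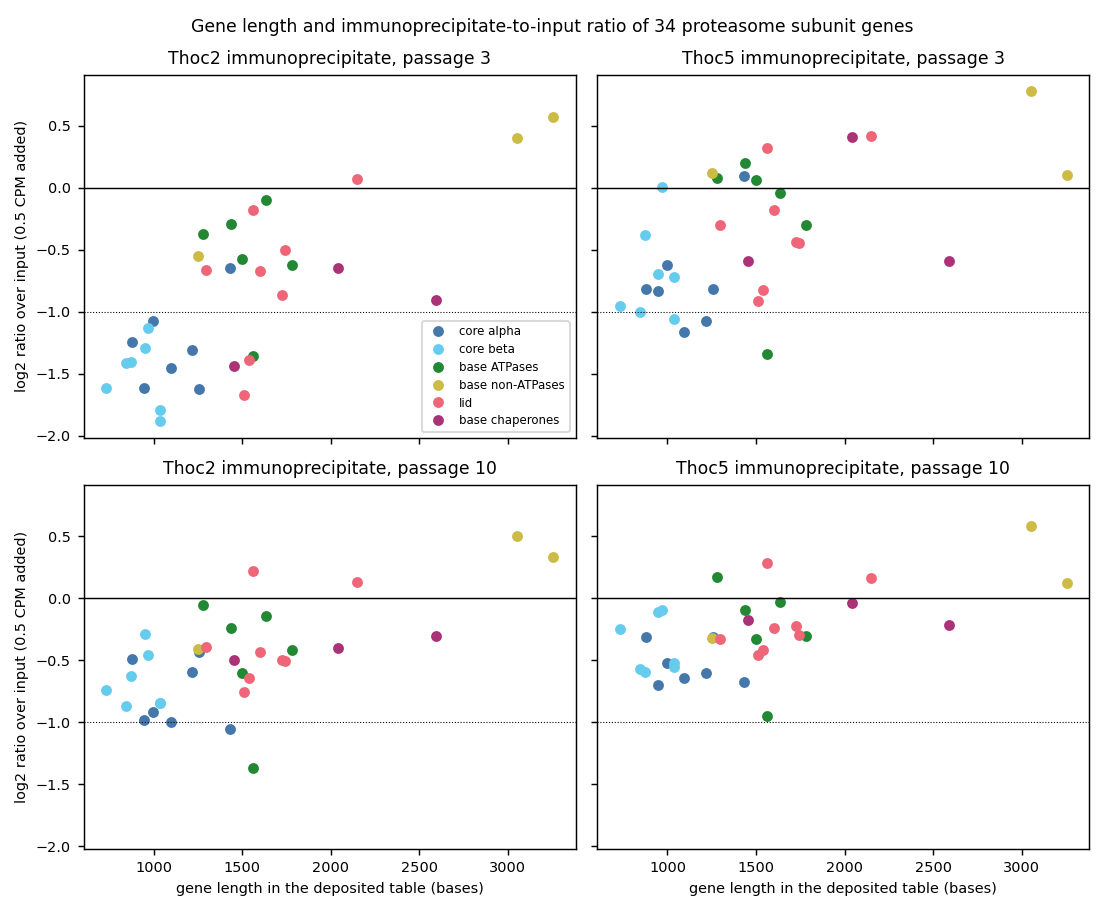
Gene length in the authors' deposited table (bases) against the log2 ratio to input (0.5 CPM added) for the 34 proteasome genes in the 4 immunoprecipitates, coloured by role. Most core subunits are short and lie below 0, with Psma3 (1434 bases) the longest of them, and Psmd1 and Psmd2, at 3256 and 3053 bases, lie above 0 in all 4 panels.

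The partners of the proteasome were read from 42 further genes in 9 lists, and edgeR called 0 of the 42 between shThoc5 and shNT. Groups were separate for 10 of them, 8 upward and 2 downward, where 16.2% and 16.4% of all genes were, so the upward count is near the share of all genes. Both shThoc5 libraries were above both shNT libraries for the immunoproteasome subunits Psmb8 (18.1 and 12.8 CPM in shNT, 19.2 and 19.9 in shThoc5) and Psmb10 (11.4 and 12.3, 16.3 and 15.0), the inhibitor Psmf1, the assembly chaperones Psmg1 and Psmg3, the shuttle factor Ubqln1, the protease Ddi2, which cleaves Nfe2l1, and Nfe2l2. Their log2 fold changes lay between 0.09 and 0.40. Both were below for the shuttle factor Rad23b (−0.12) and for Nploc4, an adaptor of the unfoldase Vcp (−0.27). Ddi2 overlaps Rsc1a1 and Psmf1 overlaps Tmem74b, so their reads are uncertain. The regulator Nfe2l1 was at 598 and 650 CPM in shNT and at 585 and 601 CPM in shThoc5.

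Between the inputs 2 of the 3 immunoproteasome genes were past 2-fold downward. Psmb8 was at 77.6 CPM at passage 3 and 13.03 CPM at passage 10 (log2 −2.53), and Psmb9 at 24.1 and 1.26 CPM (−3.81), while their constitutive counterparts Psmb5 and Psmb6 were at 0.72 and 0.64. Psmb10 was at 51.1 and 33.8 CPM (−0.59). Of the Nfe2l2 targets 4 of 6 were lower by 2-fold at passage 10, where 17.0% of all genes were (23.8% with TMM factors), led by the heme oxygenase Hmox1 (1788 and 171 CPM, −3.38), Srxn1 (−2.97) and Nqo1 (−2.93). Keap1, which targets Nfe2l2 for degradation, was at 28.3 and 92.0 CPM (1.68). Higher by 2-fold were also Ubqln2 (2.09), Rps27a (1.17), Nploc4 (1.06), Ubqln4 (1.03) and Psmg2 (1.02), where 31.0% of all genes were. The TMM shift of −0.48 in the median of all genes is more than the distance of the last 4 from the threshold.

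In the immunoprecipitates the lists spread to both sides. Of the 42 genes 15 were depleted in the Thoc2 immunoprecipitate of passage 3, where 21.8% of all genes were, and 4 were enriched, where 18.0% were. Among the depleted were Sem1 (−2.28), a small lid protein, the chaperone Psmg4 (−2.06) and Ubb (−2.02), which encodes ubiquitin. Enriched were Gclc (1.64), a glutathione synthesis enzyme, Psme4 (1.60), a proteasome activator, Ddi2 (1.26) and Srxn1 (1.17). In this order their lengths were 2314, 6442, 3539 and 2583 bases, against 491 for Sem1, 541 for Psmg4 and 1165 for Ubb. Rad23b (3811 bases, −1.14) and Psmf1 (3542 bases, −1.30) were long and depleted. The part of gene length in these ratios was not tested. At passage 10 Psme4 (1.08), Ddi2 (1.03) and Srxn1 (1.14) were again past 2-fold with Thoc2, and Ddi2 (1.10) with Thoc5. Of the 42 genes 3 were enriched and 4 depleted with Thoc2 at passage 10, where 12.3% and 7.33% of all genes were. With Thoc5 at that passage 1 was enriched and 2 were depleted, where 5.94% and 4.61% were. With Thoc5 at passage 3 the enriched genes were Gclc (1.996), Ubqln4 (1.31) and Ddi2 (1.19). These were 3 of the 42, where 23.0% of all genes were enriched, and 9 were depleted, where 12.7% were. Psme4 was in the authors' deposited list for Thoc2 at passage 10 and overlaps Erlec1. Near-identical copies elsewhere in the genome can take or lend reads for the ubiquitin genes and for several proteasome subunits.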

How the data were processed

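RNA-seq read counts per gene and RIP-seq read counts were deposited by the authors, who also deposited a normalized signal, equal to the count times a factor that did not differ between the libraries in a table. The authors deposited a ratio of immunoprecipitate to input from that signal after 2 was added, so it is not corrected for depth. They further deposited their own log2 fold changes, p-values and gene lengths for RNA-seq, and selected lists with a score per gene, per the file headers. The submitters' processing notes name bcl2fastq, Subread, featureCounts, limma, MACS2 2.1.1, HOMER 4.8.3 and mm9, with no statement of which file each tool served or whether strand was used. No gene with fewer than 11 reads, input and immunoprecipitate added, is listed for RIP-seq. Another 32 columns of per-sample values, copies within selected lists, were not used.

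Counts were compared with edgeR 4.0.16 in R 4.3.3 (quasi-likelihood test, TMM, filterByExpr, Benjamini-Hochberg over 13569 genes, threshold 0.05), tested on simulated data. Alternatives were DESeq2 1.42.0, limma 3.58.1, other scalings and filters, the replicate number as a block, and leaving out each library. Levels are CPM (read counts scaled to a common library total), TMM-scaled for RNA-seq and by library totals for RIP-seq. For RIP-seq log2 ratios, 0.5 CPM were added to both sides. Precision is set by depth: intervals are exact conditional binomial (95%) and cover counting error only. Nothing in the labels says that libraries of a group came from separate cultures, so the p-values rest on a spread that may be technical, and an exact permutation test of 2 against 2 cannot go below 0.333.

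The members, lists and the rule for named genes were chosen with earlier results of these data known. Named members are the catalytic subunits, Psmd4, Psmd14, Psmd1 and Psmd2, and the highest and lowest in each comparison. Gene names and overlapping spans come from RefSeq GRCm38.p6, used for no coordinates but the promoters'. ChIP-seq samples were not analysed here. Partner genes that are not named are given only within counts.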

Additional observations from a re-analysis of the deposited data

Results flagged for a closer look

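For 2 members the ratio of immunoprecipitate to input had opposite directions at the 2 passages, with counting intervals on opposite sides of 1. For Psmd13 with Thoc2 the CPM ratio was 0.884 at passage 3 and 1.17 at passage 10. For Psmd4 with Thoc5 it was 1.08 at passage 3 and 0.803 at passage 10. The difference between passages was not tested, since each passage has 1 library of each kind. The passage 3 values lie within the shifts that another scaling gives to all genes, of 0.20 on the log2 scale for Thoc2 without ribosomal RNA and mitochondrially encoded genes and of −0.24 for Thoc5 with TMM factors.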

How the results depend on the processing

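Of 351 alternative values 305 kept their direction and call, or, without a test, moved by less than the spread. For RNA-seq, DESeq2 called 12 genes higher and 34 lower, edgeR without a low count filter called 1 lower, and leaving out libraries gave 0 to 7 higher and 0 to 40 lower, the highest without shThoc5 replicate 1; 0 members were called in each. With library totals 8 members were separate upward, and the share of all genes at that scaling is not given. Leaving out a library, where the lone library left in its group is assumed to vary like the other group, moved Psmb5 between −0.12 and 0.19, Psmd14 between −0.32 and 0.022, Psmd1 between −0.18 and 0.063 and Psmd2 between −0.19 and 0.066. With the replicate block edgeR called 179 genes higher, 332 lower and 1 member, Psmd8 (−0.44, adjusted p = 0.0493); the deviations of same-numbered libraries correlated at 0.635, and with 2 pairs the numbers were not taken as pairing.

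For RIP-seq, the authors' ratio counted 34, 34, 8 and 29 members as depleted (Thoc2 and Thoc5 at passage 3, Thoc2 and Thoc5 at passage 10) with medians of −3.75, −3.04, −0.72 and −1.33. In the same order, that ratio put 90.2%, 86.4%, 14.6% and 48.2% of all genes past 2-fold downward. Without ribosomal RNA and mitochondrially encoded genes in the totals the Thoc2 median at passage 3 was −0.78. With these totals 4 members were depleted with Thoc2 at passage 10, where 7.84% of all genes were. At passage 3, 0 were higher by 2-fold with Thoc5 than Thoc2, where 11.4% of all genes were. For Thoc5 at passage 3, TMM factors and centring each gave 11 depleted members, with medians of −0.69 and −0.64. These scalings put 17.9% and 17.0% of all genes past 2-fold downward. At 1.5-fold, 16 members were depleted and 1 enriched for Thoc5 at passage 3, 14 depleted for Thoc2 at passage 10, and 6 depleted and 1 enriched for Thoc5 at passage 10. The shares of all genes at 1.5-fold are not given, so these counts show no difference from them. Thoc5 over Thoc2 at passage 3 gave 2 members with 2 CPM added and 0 with TMM factors or centring (medians 0.15 and 0.13). In the same order, 10.0%, 8.96% and 8.42% of all genes were past 2-fold upward. The inputs gave 0 members higher and 1 lower with TMM factors (median −0.22) and 1 and 1 after centring (−0.16). After centring 19.8% of all genes were past 2-fold upward and 23.2% downward. The cause of these shifts was not tested. Depth limits Psmd10 and Psmd5 most, with 43 and 54 reads in the Thoc2 library of passage 3.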
